A study of Homo sapiens with 6 samples.

Results

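The 6 type IV collagen genes, COL4A1 to COL4A6, were examined for places on chromatin where ZNF469 was found. They were taken as the family of that name among 20007 protein-coding genes, and every listed region in a gene body or within 20 kb of it was counted. Of the 19108 regions of full-length ZNF469, 14 fell in these windows, and of the 54 regions of dZF-ZNF469, a form lacking most of its zinc fingers, 0 did. The measurement was CUT&RUN, in which an antibody brings a nuclease to a protein on chromatin and the DNA cut free is sequenced, here with an antibody to ZNF469. Both groups were LX-2 cells, an immortalized line of human hepatic stellate cells, the main matrix producers of fibrotic liver. Each group carried a piggyBac transgene for 1 construct, was selected with an antibiotic, and was given doxycycline at 1 ug/mL for 24 h to switch the transgene on. The labels call the full-length line clone3.4 and the dZF line clone3.1. Each construct was present in 1 line, so the construct and the line cannot be told apart. The antibody's antigen, per the study, lies outside the stretch deleted in dZF. Per the labels there were 6 libraries, 3 per group. The deposited data are 1 peak list per group with no value per library, so no value below has a replicate SD and none of the comparisons between lists, pairs or genes could be tested.

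Type IV collagen is the network-forming collagen of basement membranes, the thin sheets of matrix under epithelia and around vessels. Its chains assemble as trimers. The trimer of alpha1 and alpha2 chains, the products of COL4A1 and COL4A2, is present in almost all basement membranes. The alpha3, alpha4, alpha5 and alpha6 chains have narrower distributions, which for alpha3, alpha4 and alpha5 include the glomerulus of the kidney. Mutations of COL4A3, COL4A4 or COL4A5 cause Alport syndrome. In the liver, stellate cells are a known source of alpha1 and alpha2 chains. The 6 genes lie in 3 head-to-head pairs, in which the genes of a pair are transcribed away from each other out of a shared start region. Coordinates are hg38, the build given by the submitters, counted from 1 and on the forward strand, with GENCODE version 44 genes. The main starts, those of the MANE Select transcripts, were 127 bp apart in COL4A1/COL4A2, 419 bp in COL4A3/COL4A4 and 1416 bp in COL4A5/COL4A6. COL4A4 and COL4A6 also have annotated starts nearer to the partner, so that the annotated genes begin 171 bp and 341 bp apart.

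Full-length ZNF469 was found mainly at 1 of the 3 pairs. The COL4A1/COL4A2 window (chr13:110128963-110533209, 404 kb) held 11 regions, all inside the gene bodies. The COL4A5/COL4A6 window (chrX:108135607-108717545, 582 kb) held 2, both inside COL4A6. The COL4A3/COL4A4 window (chr2:226982714-227334792, 352 kb) held 1, and that region lay in the flank, in the last exon of the neighbouring gene RHBDD1. COL4A2 contained 7 regions, COL4A1 4 and COL4A6 2, while COL4A3, COL4A4 and COL4A5 contained 0 each.

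**Figure D1:**
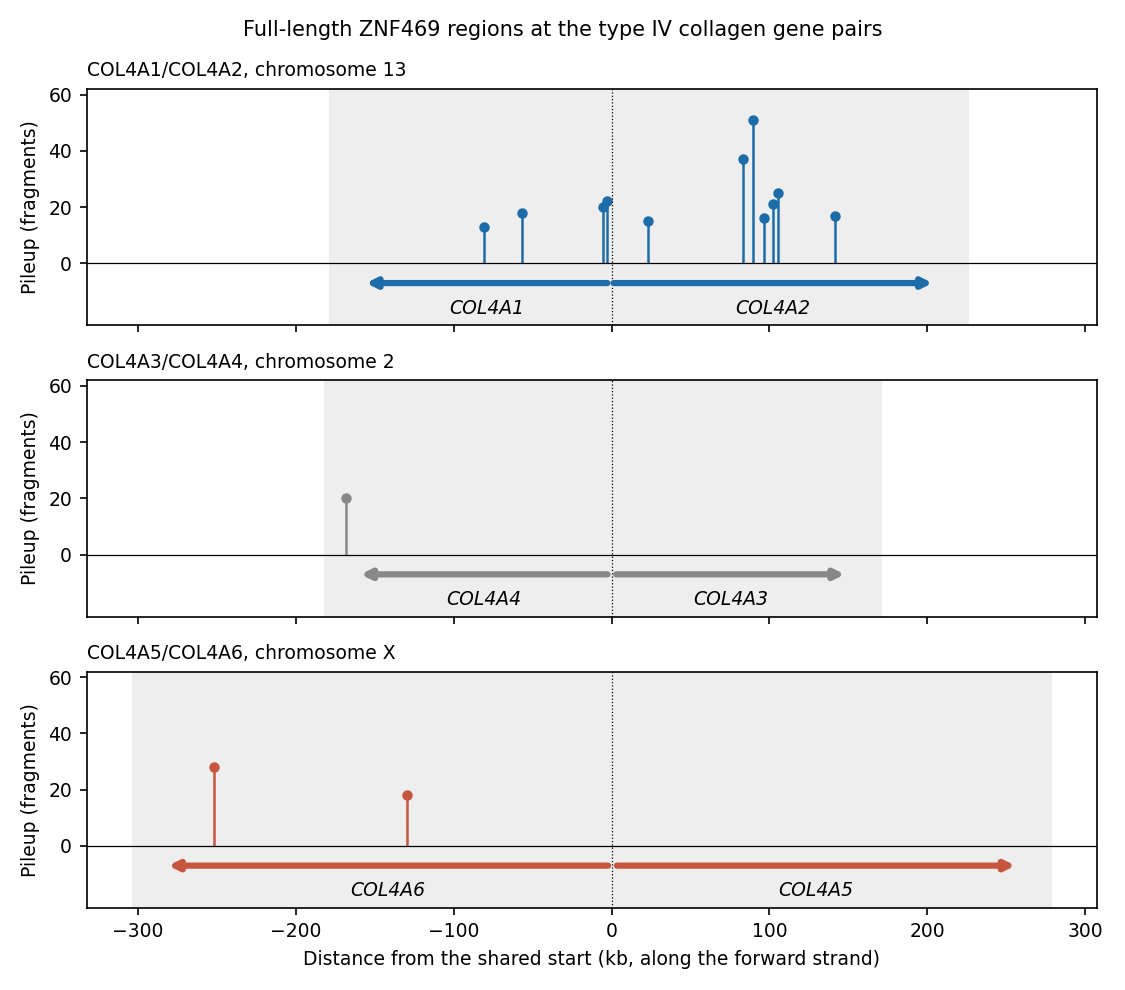
Each panel shows a gene pair with the summits of its full-length regions at their distance in kb from the midpoint of the main starts (dotted line), and the height of a line is the pileup in fragments. Arrows are the genes in the direction of transcription and grey is the window of gene bodies plus 20 kb. The 11 COL4A1/COL4A2 regions spread over both genes with 5 close together in COL4A2, and COL4A3, COL4A4 and COL4A5 carry none.

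The sequences that carry the description are given in 3 sets, as 201 bases centred on the summit, forward strand, hg38. Capitals mark matches, on either strand, to an AP-1 site (TGANTCA), a TEAD site (GGAATG) or a RUNX site (TGTGGT), the short motifs of factor families that are active in stellate cells. The first set is the region with the highest pileup of the family and the region ranked second, both in intron 4 of COL4A2 (chr13:110396920-110397120 and chr13:110390547-110390747).

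COL4A2, highest pileup: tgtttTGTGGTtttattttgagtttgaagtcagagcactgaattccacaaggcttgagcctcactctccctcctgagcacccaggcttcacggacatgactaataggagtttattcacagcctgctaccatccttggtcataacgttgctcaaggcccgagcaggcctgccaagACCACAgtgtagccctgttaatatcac

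COL4A2, second pileup: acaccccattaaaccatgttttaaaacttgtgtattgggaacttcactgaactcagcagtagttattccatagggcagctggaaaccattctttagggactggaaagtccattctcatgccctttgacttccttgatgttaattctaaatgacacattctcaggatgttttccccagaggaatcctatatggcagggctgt

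The second set is a region of the same intron that has an AP-1 site (chr13:110412219-110412419) and the COL4A2 region farthest into the gene, which has 3 TEAD matches (chr13:110448404-110448604).

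COL4A2, AP-1 site in intron 4: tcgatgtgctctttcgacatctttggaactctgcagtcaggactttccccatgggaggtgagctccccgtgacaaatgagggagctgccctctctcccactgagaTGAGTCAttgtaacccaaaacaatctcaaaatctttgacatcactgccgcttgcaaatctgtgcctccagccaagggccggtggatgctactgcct

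COL4A2, intron 18: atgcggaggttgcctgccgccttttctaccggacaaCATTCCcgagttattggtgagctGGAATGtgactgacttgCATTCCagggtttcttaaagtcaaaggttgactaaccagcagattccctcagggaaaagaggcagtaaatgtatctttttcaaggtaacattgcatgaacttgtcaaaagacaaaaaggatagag

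The third set is a COL4A1 region close to the shared start (chr13:110301752-110301952) and the COL4A6 region next to exon 23 (chrX:108186899-108187099).

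COL4A1, intron 1: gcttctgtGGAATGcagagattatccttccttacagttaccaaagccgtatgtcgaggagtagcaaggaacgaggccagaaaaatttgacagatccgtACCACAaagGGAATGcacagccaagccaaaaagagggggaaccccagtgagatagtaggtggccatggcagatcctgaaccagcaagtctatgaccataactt

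COL4A6, beside exon 23: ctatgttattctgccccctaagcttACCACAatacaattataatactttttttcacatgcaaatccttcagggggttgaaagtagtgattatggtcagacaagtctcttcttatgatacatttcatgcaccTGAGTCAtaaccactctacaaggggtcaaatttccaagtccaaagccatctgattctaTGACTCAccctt

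The strength of a region is given here by its pileup, the count covering the summit in the data behind a group's list. How the libraries were combined for a list is not given in the sources used here. The unit is called fragments, although the peak caller's settings are not given either. Exact 95% Poisson limits of the pileup cover counting error only. The local background is the number of fragments that the peak caller expected at the summit, and the fold is (pileup + 1)/(background + 1). These values were recovered from the deposited lists. COL4A1 and COL4A2 encode the widespread alpha1 and alpha2 chains. In COL4A2 (207.4 kb, plus strand), the pileups were 15, 37, 51, 16, 21, 25 and 17 fragments, in order from the start of the gene. The region with 51 fragments (38.0 to 67.1) ran from chr13:110396621 to 110397342, 89.3 kb inside the gene. Its background was 3.56 fragments and its fold 11.4, at rank 801 of 19108 by fold and rank 347 by pileup. The region with 37 fragments (26.1 to 51.0), from chr13:110390555 to 110390940, had a fold of 9.58 over a background of 2.97 and ranked 2797 by fold. The third of this stretch in pileup, from chr13:110411982 to 110412436, had 25 fragments (16.2 to 36.9) and a fold of 8.04. The remaining 4 COL4A2 regions had folds between 5.25 and 6.12. Of the other 10 regions of the pair, 9 had upper limits below 38.0, the lower limit of the highest one. The region with 37 fragments was the exception.

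**Figure D2:**
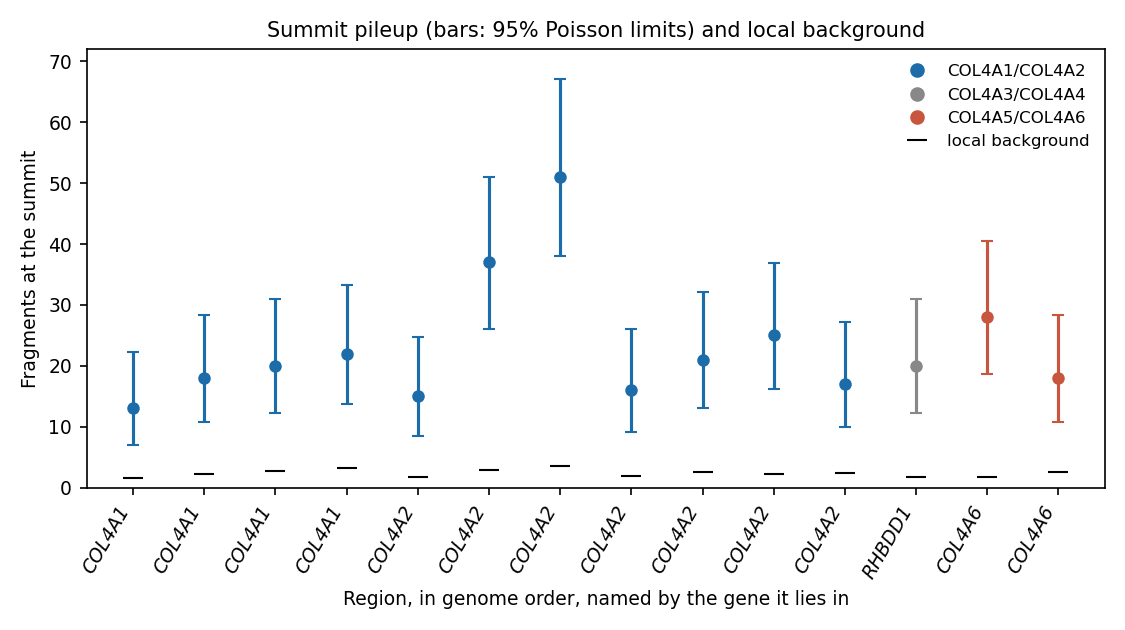
The vertical axis gives fragments at the summit for the 14 regions, in genome order within each pair and named on the horizontal axis by the gene each lies in. Points are pileups with 95% Poisson limits and dashes are local backgrounds. The COL4A2 regions with 37 and 51 fragments stand highest, and all backgrounds lie between 1.59 and 3.56 fragments.

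These 3 regions and 2 weaker ones sat close together. From chr13:110390555 to 110412436, a stretch of 21.9 kb, there were 5 regions with summits 2.57 to 6.50 kb apart. All 5 lay in intron 4 of COL4A2, an intron of 67.2 kb, and began 83.3 kb from the main start. They covered 2264 bp and their pileups summed to 150 fragments, of 255 in the whole pair. The nearest annotated start of any transcript was 12.4 to 33.9 kb away, at a COL4A2 model with an incomplete 5′ end. Among 2223 protein-coding genes of at least 150 kb, 19 (0.855%) had 5 or more regions of the body within 25 kb, COL4A2 among them. This span was chosen after the regions had been seen and is a description. Without these 5 regions the pair had 6.

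In COL4A1 (158.2 kb, minus strand), the 4 regions had pileups of 22, 20, 18 and 13 fragments, in order from the start of the gene, and folds of 5.41 to 5.80. The limits of all 4 overlapped, the highest being 13.8 to 33.3 and the lowest 6.92 to 22.2. Of these, 3 lay in intron 1, which is 64.2 kb long, and the fourth in intron 2. The COL4A1 regions thus fell within a narrow range of fold, below the median of 7.36 over all full-length regions, while the COL4A2 folds ran from 5.25 to 11.4. Median pileups were 19.0 fragments in COL4A1 and 21.0 in COL4A2, a difference smaller than the counting error of a single region.

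No region covered a shared start in any of the 3 pairs. The nearest was in COL4A1, from chr13:110304415 to 110304583, with its edge 2.57 kb from the main start of COL4A1, 22 fragments (13.8 to 33.3), a background of 3.14 and a fold of 5.55. Another, from chr13:110301751 to 110302005, lay 5.15 kb from the start with 20 fragments (12.2 to 30.9). The first was also 1.23 kb from an upstream alternative start of COL4A2, and the second 2.85 kb from the start of an alternative COL4A1 transcript. On the COL4A2 side the nearest region was 22.8 kb from the main start, with 15 fragments (8.40 to 24.7). Over all full-length regions, 39.3% lay within 3 kb of an annotated start, and among the 14 here 2 did (14.3%). In the RefSeq promoters (GRCh38.p14, 250 bases before to 50 after the start), the COL4A1 and COL4A2 sequences were 76.7% and 77.7% G or C, against a median of 58.3% over 27305 promoters. These 2 sequences (chr13:110307108-110307407 and chr13:110307034-110307333) overlap over most of their length, so they are not separate observations. Both held a CCAAT box, as did 35.7% of all promoters, and a GC box (GGGCGG), as did 44.6%. Neither held an AP-1, TEAD or RUNX match, which 7.76%, 14.0% and 13.1% of all promoters held.

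COL4A6 (283.9 kb, minus strand), which encodes the alpha6 chain, had the third highest pileup of the family. Its region from chrX:108186677 to 108187178 had 28 fragments (18.6 to 40.5), a background of 1.70 and a fold of 10.7, at rank 1249 of 19108. It covered 83 of the 184 bp of exon 23, 1 of 45 exons, and the summit was 97 bp outside the exon, in the adjoining intron. The other COL4A6 region, in intron 3 from chrX:108309203 to 108309557, had 18 fragments (10.7 to 28.4) and a fold of 5.36. Both were far from the shared start, at 251 and 129 kb. COL4A5 (257.7 kb), which encodes the alpha5 chain, had 0 regions in its body and 0 within 20 kb.

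COL4A3 (150.2 kb) and COL4A4 (161.7 kb), which encode the alpha3 and alpha4 chains of the glomerular basement membrane, had 0 regions in their bodies. The 1 region of their window, from chr2:226995514 to 226995924, had 20 fragments (12.2 to 30.9), a background of 1.74 and a fold of 7.66, and lay entirely in exon 9, the last, of RHBDD1, a gene for a rhomboid protease, 6.79 kb beyond the end of COL4A4. A list of peaks does not show weaker coverage. Where the background was at its lowest, listed full-length regions had pileups from 5 upward with a median of 13 fragments, so coverage of a few fragments at COL4A3, COL4A4 or COL4A5 was not detectable in these lists. Just outside the COL4A1/COL4A2 window lay 3 regions. They were 0.314, 2.23 and 13.7 kb beyond its limits, with pileups of 17, 24 and 19 fragments and folds of 6.28, 8.89 and 9.03. The nearest to the COL4A5/COL4A6 window was 3.72 kb beyond it, in the gene ATG4A, with 13 fragments and a fold of 7.51. At COL4A3/COL4A4 the nearest was 71.4 kb beyond, with 16 fragments.

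Relative to length, the COL4A1/COL4A2 window held 2.72 regions per 100 kb, the COL4A5/COL4A6 window 0.344 and the COL4A3/COL4A4 window 0.284. Regions covered 1.12%, 0.147% and 0.117% of these windows. The density of COL4A1/COL4A2 was 4.96 times that of chromosome 13 (0.548 per 100 kb). COL4A5/COL4A6 was at 1.32 times the density of chromosome X (0.261) and COL4A3/COL4A4 at 0.419 times that of chromosome 2 (0.678). These chromosome densities include sequence between genes. Over the bodies of all protein-coding genes the density was 0.868 per 100 kb, below that of the COL4A1/COL4A2 window and above those of the other windows. Between the pairs, listed regions differed more in number than in median pileup. Median pileups were 20, 20 and 23 fragments for COL4A1/COL4A2, COL4A3/COL4A4 and COL4A5/COL4A6, on 11, 1 and 2 regions. Median folds were 6.0, 7.66 and 8.05, and the highest pileups were 51, 20 and 28 fragments. Only listed regions enter these medians, and the COL4A3/COL4A4 region lies in RHBDD1, so they do not rank the pairs by strength.

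Having a region at all is common for long genes. With 20 kb flanks, 4 of the 6 type IV collagen genes had a full-length region, against 52.0% of all protein-coding genes and 70.1% of those of at least 150 kb, a length that all 6 exceed. In the gene body alone 3 of 6 had one, against 33.7% and 65.7%. The share of occupied members was thus near the share of other long genes. Where the members differed was in density. COL4A2 had 3.38 regions per 100 kb of gene body and COL4A1 2.53, against a median of 0.464 and an upper quartile of 1.13 in the long genes, and 65 (2.92%) and 146 (6.57%) of the 2223 long genes had more. COL4A6 had 0.704, exceeded by 34.4% of the long genes. COL4A3, COL4A4 and COL4A5 had none, a state shared with the long genes outside the 65.7% that had a region in the body.

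**Figure D3:**
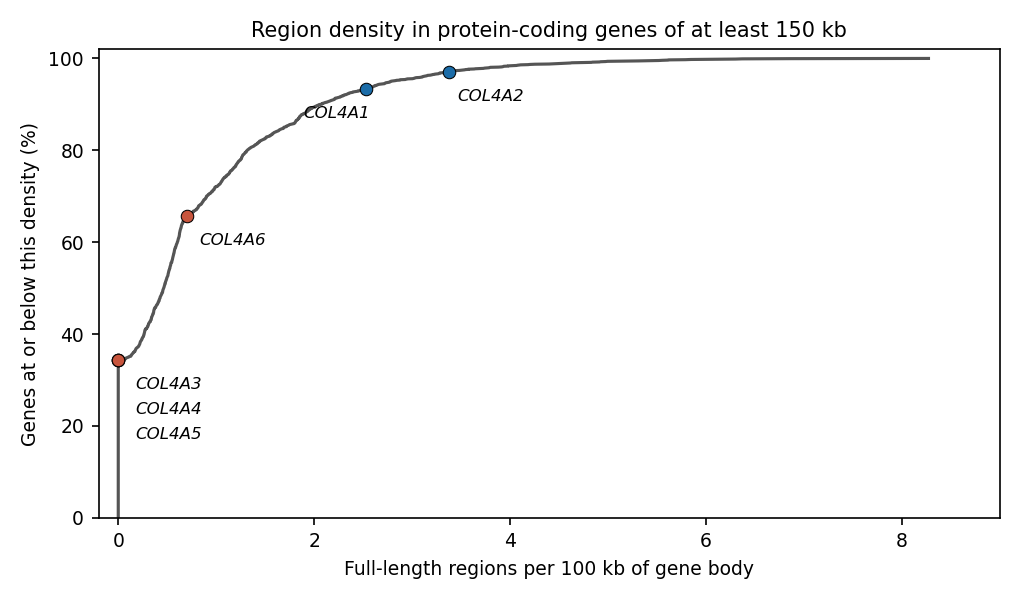
The curve gives the percent of the 2223 protein-coding genes of at least 150 kb (vertical axis) whose bodies hold at most the number of full-length regions per 100 kb on the horizontal axis. Points are the type IV collagen genes. COL4A2 at 3.38 and COL4A1 at 2.53 lie near the top of the curve, COL4A6 at 0.704 in the middle, and the other 3 genes at 0.

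Set among all 19108 full-length regions, the 14 were ordinary in pileup and sat on a slightly raised background. Their median pileup was 20 fragments, the same as over all regions, and 6 were above it. Their median background was 2.35 fragments against 1.82, and 10 were above the overall median. Their median fold was 6.0 against 7.36, with 5 above it and 3 beyond 8.66, the upper quartile. Those 3 were the COL4A2 regions with 51 and 37 fragments and the COL4A6 region beside exon 23. Their median width was 398 bp against 440 bp, and 12 of the 14 lay entirely in introns. COL1A1, COL3A1 and COL5A2, set beside them and encoding fibrillar collagen chains, had 14, 9 and 19 regions in the body plus 20 kb, with median pileups of 97.0, 73.0 and 38.0 fragments, median backgrounds of 25.7, 15.0 and 5.93 and median folds of 4.02, 5.04 and 5.85. The backgrounds of the type IV collagen regions, at most 3.56, were below all 3 of those background medians. The highest type IV pileup, 51, was below the median pileups of COL1A1 and COL3A1. COL3A1 and COL5A2 are neighbouring genes on chromosome 2, and regions counted for both were not looked for. Per 100 kb of gene body, COL1A1, COL3A1 and COL5A2 had 45.6, 15.6 and 8.27 regions, against 2.53 in COL4A1 and 3.38 in COL4A2. COL1A1 and COL3A1 are short, at 17.5 and 38.4 kb, so few regions give a high density. COL5A2, at 193 kb, is closer in length to COL4A1 (158.2 kb) and COL4A2 (207.4 kb).

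**Figure D4:**
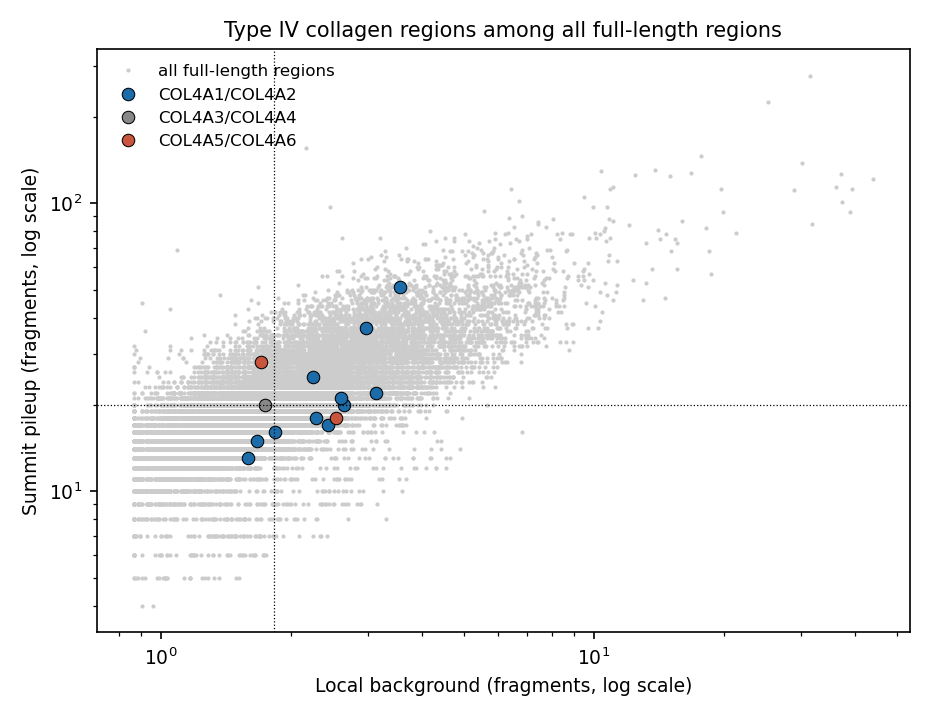
Each grey dot is a full-length region, with its local background on the horizontal and its summit pileup on the vertical axis, both in fragments on log scales. Coloured points are the 14 type IV collagen regions by pair and dotted lines are the medians of all regions, 1.82 and 20 fragments. The 14 points lie inside the main cloud, 10 of them to the right of the median background.

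The dZF construct had 0 regions in the 3 windows. With 20 kb flanks, 25 of 20007 protein-coding genes (0.125%) had a dZF region, so 0 of 6 is the usual state in that list. The nearest dZF region on the same chromosome was 18938 kb from COL4A3/COL4A4, 47313 kb from COL4A5/COL4A6 and 58185 kb from COL4A1/COL4A2. To set the 14 regions at the depth of the dZF list, their pileups and backgrounds were divided by 1.38, the ratio of the lowest backgrounds of the lists, taken as their relative depth since the total reads were not used here. After this, 10 of 14 kept −log10 p-values beyond 7.62, the weakest dZF value, as did 85.3% of all full-length regions. The 4 that did not were the weakest of COL4A1, the first and the last of COL4A2 and the one in intron 3 of COL4A6. The full-length list itself reached down to 2.16, so 7.62, the weakest of 54 dZF records, is not a known cutoff for listing. Only the COL4A2 region with 51 fragments, at 29.0 after scaling, exceeded the median of the dZF list, 22.0. The names of the lists point to an IDR filter, which keeps peaks that rank alike between replicates, and its effect was not modelled.

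The 14 summit windows were searched for 5 short motifs on both strands. AP-1 matches stood in 5 of 14 (35.7%, 95% Wilson interval 16.3% to 61.2%), against 42.0% of all full-length regions and 50.8% of the 11605 regions more than 3 kb from any start. These were the COL4A1 region with 18 fragments, the COL4A2 regions with 16 and 25, the RHBDD1 region and the COL4A6 region beside exon 23, which held 2 matches. TEAD matches stood in 6 of 14 (42.9%, 21.4% to 67.4%), all in COL4A1 or COL4A2, against 21.1% of all regions and 24.5% of those away from starts. RUNX matches stood in 7 of 14 (50.0%, 26.8% to 73.2%), against 17.5% and 20.2%. Within 50 bp of the summit, AP-1 matches stood in 4 of 14 (28.6%), against 25.9% of all regions. TEAD and RUNX matches stood in 3 of 14 each at that distance (21.4%), against 11.7% and 9.45%. Over whole regions, AP-1 stood in 42.9% against 56.1%, TEAD in 57.1% against 35.6% and RUNX in 42.9% against 31.7%. GC boxes stood in 1 of 14 (7.14%, 1.27% to 31.5%), against 14.6% of all regions and 3.13% of those away from starts. CCAAT boxes stood in 2 of 14 (14.3%, 4.01% to 39.9%), against 30.9% and 27.0%. The intervals of all 5 motifs treat the 14 windows as independent, although 11 lie in the COL4A1/COL4A2 pair. They are therefore not a test against these shares. Over whole regions the shares were 14.3% against 20.3% for GC boxes and 50.0% against 51.5% for CCAAT boxes. The COL4A2 window with the highest pileup, printed first, held 2 RUNX matches away from the summit and no AP-1 or TEAD match, and the COL4A2 window with 37 fragments held none of the 3. A match is a run of letters and does not show that a factor binds, and with 14 windows and 5 motifs these shares were not tested.

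Genes for basement membrane components, and for the synthesis, receptors and turnover of collagen or basement membranes, were examined with the same windows. The list of 40 genes was drawn up with earlier results of these data known and its genes are long, with a median of 82.4 kb against 27.5 kb over all protein-coding genes, so its counts are descriptive. Of the 40, 37 had a full-length region in the body plus 20 kb (92.5%), against 52.0% of all protein-coding genes, and 17 had 3 or more (42.5%), against 13.3%. In the gene body alone 29 of the 40 had one (72.5%), against 33.7%, so part of the counts below rests on flanks that may hold other genes. None had a dZF region. Their 104 regions had a median pileup of 22.0 fragments and a median fold of 6.86.

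Of the 11 laminin chains, which form the other network of the basement membrane, 9 had a region, and 8 had one in the gene body. LAMC1 had 5, with pileups of 17 to 26 and the nearest 0.861 kb from its start. LAMB1 and LAMA3 had 4 each and LAMB3 had 3, while LAMA5 and LAMC3 had 0. LAMB1 and LAMC1 encode the beta1 and gamma1 chains, which most laminins of mesenchymal tissue contain. All 6 other structural components had a region, and 4 had one in the gene body. COL15A1, a collagen at the outer face of basement membranes, had the most of the whole list with 8 (pileups 17 to 32), and NID2, a nidogen that links laminin to type IV collagen, had 4. HSPG2, NID1, AGRN and COL18A1 had 1 each.

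Of the 12 genes for synthesis, export and cross-linking, 11 had a region, and 9 had one in the gene body. P4HA2, a subunit of prolyl 4-hydroxylase, and PLOD2, a lysyl hydroxylase, had 5 each, and PXDN, the peroxidase that forms the sulfilimine cross-links of type IV collagen, had 3, the nearest 1.41 kb from its start. P4HA1 had 0. All 7 receptor genes had a region, and 6 had one in the gene body. ITGA2 and ITGA3 had 6 each, and ITGA1, ITGB1, DDR2 and DAG1 had 4 each. Integrin alpha1 and its partner beta1 form a receptor for type IV collagen, and both genes were among these. All 4 turnover genes had a region, but only 2 had one in the gene body. TIMP2, an inhibitor of metalloproteinases, had 5, of which 2 lay in the body, with a median pileup of 39.0 fragments. By this count, in the body plus 20 kb, COL4A2 and COL15A1 had the most regions of the 46 genes, with 9 and 8. Of the 9, 2 lay in COL4A1. The count takes no account of gene length. Per 100 kb of gene body COL15A1 had 5.49 regions and COL4A2 3.38, and other list genes also exceeded COL4A2.

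**Figure D5:**
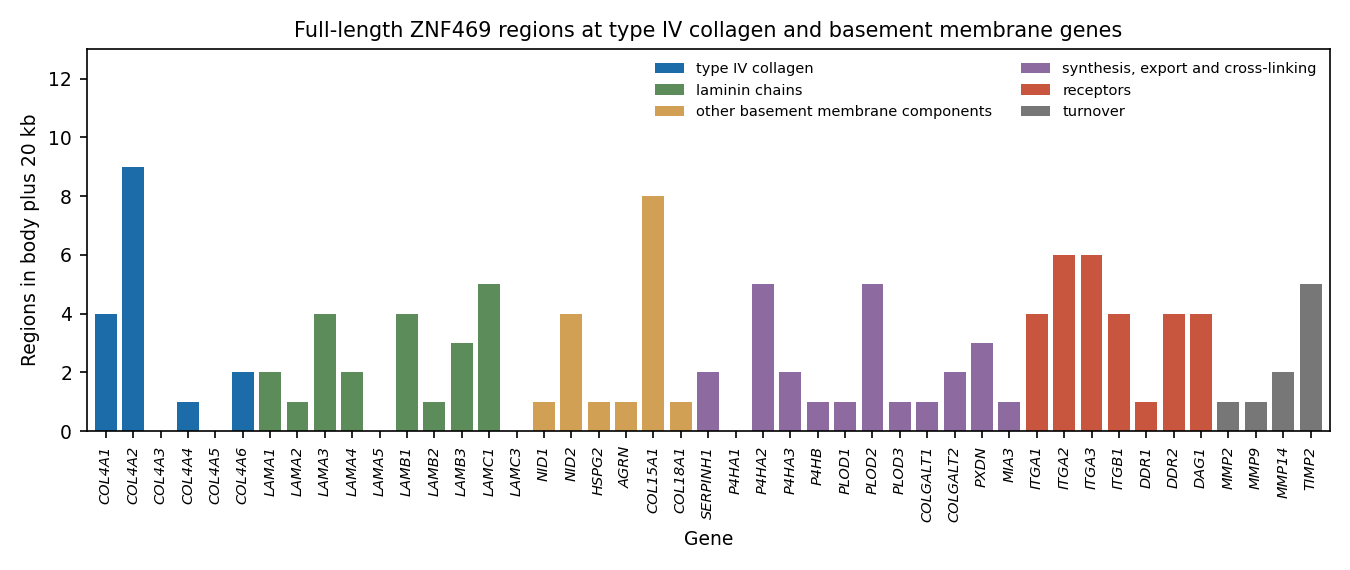
Bars give the number of full-length regions in the body plus 20 kb of each type IV collagen gene and each gene of the basement membrane list, coloured by group. The list item that is not reported singly is not drawn. COL4A2 (9) and COL15A1 (8) have the most, and COL4A3, COL4A5, LAMA5, LAMC3 and P4HA1 have 0.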

How the data were processed

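CUT&RUN with an antibody to ZNF469 was available for 6 libraries, 3 per construct, as 1 deposited peak list per construct, named as the optimal set of an IDR (irreproducible discovery rate) analysis. How the libraries were combined is not given in the sources used here. The submitters' processing notes name Bowtie2 2.3.4.3, MACS2 2.2.5 and hg38. Their settings, and whether a control library was used, are not given in the sources used here. The deposited columns used were the fold enrichment (a ratio), the −log10 p-value and the summit position. The deposited score, which the name of the lists points to as a scaled IDR value, was used only to describe records.

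The pileup was recovered as the whole number that, through MACS2's definitions of fold and Poisson p, gave both deposited values. All records (100%) of each list gave such a number, within 6.9e-05 of the deposited −log10 p, and the procedure was tested on simulated data. Total reads per library were not analysed here, so precision rests on pileups, of which the full-length median was 20. No records overlapped, so each record is 1 region. Sequences came from hg38, genes from GENCODE version 44 and promoters from RefSeq. The members, the gene list and its groups were chosen with earlier results of these data known. The text names the 6 members, list genes with 3 or more regions or with none, genes with a start within 3 kb of a member region, and COL1A1, COL3A1 and COL5A2. Other genes (HSPG2, NID1, AGRN, COL18A1, RHBDD1 and ATG4A) were named after their values were seen. One item of the list enters the counts but is not reported singly here. Alternatives varied the flanks, the stringency, the start window, the motif window and the scaling. Python 3.11.15, scipy 1.17.1 and pandas 2.3.3 were used.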

Additional observations from a re-analysis of the deposited data

How the results depend on the processing

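The 10 results were recomputed under 57 alternatives, 2 of them added after the data had been seen, and 38 left them within 1.5 times. The count of 0 dZF regions at the 6 genes was the same under all 9 of its alternatives. No paired analysis was possible because the lists carry no values for single libraries, and none could be left out. Stringency lowered the counts by construction. COL4A1/COL4A2 kept 3 regions in the upper 50% by fold, 2 in the upper 25% by fold, 6 in the upper 50% by pileup, 2 in the upper 25% by pileup and 6 without the span of 5 in COL4A2, an added alternative. COL4A5/COL4A6 kept 1 under each of these 4 stricter settings. COL4A3/COL4A4 had 0 without flanks, 0 in the upper 25% by fold or pileup, 0 without the RHBDD1 region (added) and 3 with flanks of 100 kb. In the upper 50% by fold the median pileup of COL4A1/COL4A2 was 37.0 fragments and the median fold 9.58. Within 1 kb of a start the pair had 0 regions in place of 2. With the limit at the median −log10 p of the dZF list, 1 region in place of 10 passed it after scaling. In the upper 25% by pileup 15 of the 40 genes of the basement membrane list had a region. The order of the pairs by number of regions, COL4A1/COL4A2 first, held under all alternatives run. The order of the other 2 did not, with 3 regions each at flanks of 100 kb and 1 each in the upper 50% by fold or by pileup.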
